A study of Homo sapiens with 36 samples.

Results

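Fatty acid synthesis and desaturation was described from 10 genes of the pathway, picked by symbol from a gene expression table of 21950 genes measured in K562 cells. The 10 are SCD, FADS1, FADS2, FASN, ACACA, ACLY, ACSS2, ELOVL5, ELOVL6 and ACSL3, and all 10 had a mean of at least 1 FPKM over the libraries (fragment counts scaled to transcript length and library size), the level above which a gene was tested. SCD, FADS1 and FADS2, the desaturases that use oxygen, were described apart from the other 7 genes.

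Cells build fatty acids from acetyl-CoA in the cytosol. ACLY makes acetyl-CoA from citrate and ACSS2 makes it from acetate, ACACA carboxylates it to malonyl-CoA, and FASN joins these units into palmitate. ELOVL6 and ELOVL5 lengthen saturated and polyunsaturated chains, and ACSL3 joins free fatty acids to coenzyme A. SCD puts the first double bond into stearate and palmitate, while FADS2 and FADS1 put the delta-6 and delta-5 double bonds into polyunsaturated chains. Each desaturase consumes molecular oxygen and takes electrons from cytochrome b5. The sterol-regulated SREBP transcription factors, which INSIG proteins hold back in the endoplasmic reticulum when sterols are plentiful, activate many genes of this pathway.

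K562 is an established human chronic myeloid leukemia line with erythroid features. The cells carried no stated genetic change and grew in DMEM in multiwell plates. Incubators held 21%, 5% or 1% oxygen, and cells were taken after 6 h, 24 h, 3 d and 6 d, with a passage at 3 d. Each of the 12 combinations of oxygen and time had 3 libraries, 36 in all, and the 21% oxygen libraries of the same time served as the control. Each oxygen level was held in its own incubators, so oxygen and incubator cannot be told apart. Nothing in the labels says that the 3 libraries of a group came from separate cultures, so a p-value here reflects library-to-library spread, which may be technical.

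The libraries expressed the erythroid genes GATA1 (124 to 307.9 FPKM) and HBG1 (595.5 to 2727 FPKM), while 6 markers of lymphoid, hepatic, fibroblast and endothelial cells summed to 1.299 to 6.606 FPKM. EGLN3, a prolyl hydroxylase gene induced by low oxygen, was higher in 1% oxygen averaged over time by 2.41 on the log2 scale (SE 0.094, limma adjusted p = 2.92e-17). PDK1 and CA9, chosen as further low-oxygen checks, were higher by 2.08 and 2.54. One library stood apart: the third library of 1% oxygen at 3 d, called the shallow library here, listed 7220 genes above 0 against 14512 to 19543 in the other 35. It listed 0 for 429 of the 3695 genes whose median was over 20 FPKM, where no other library listed more than 7 of them at 0. The third library of 21% oxygen at 24 h had the lowest relative depth of the remaining 35 (0.339, where the others ran up to 1.52) and the highest FPKM total (1171415). Results that rest on the shallow library are given with and without it. In these bulk RNA samples, fewer cells of a type and less RNA per cell cannot be told apart.

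SCD and FADS1 were higher and ELOVL6 lower in low oxygen averaged over time, so the bases just before the start of these 3 genes are shown. They are RefSeq sequences of GRCh38.p14, limited to the bases before the first annotated start of the gene, with any match to CCAAT, the letters of the box bound by NF-Y, in capitals.
SCD, chr10:100346983-100347123, plus strand: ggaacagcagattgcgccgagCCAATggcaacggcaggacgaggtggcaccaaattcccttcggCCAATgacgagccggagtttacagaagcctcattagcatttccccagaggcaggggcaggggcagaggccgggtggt
FADS1, chr11:61817163-61817253, minus strand: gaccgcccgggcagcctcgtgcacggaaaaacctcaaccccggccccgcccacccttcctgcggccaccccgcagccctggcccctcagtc
ELOVL6, chr4:110198677-110198865, minus strand: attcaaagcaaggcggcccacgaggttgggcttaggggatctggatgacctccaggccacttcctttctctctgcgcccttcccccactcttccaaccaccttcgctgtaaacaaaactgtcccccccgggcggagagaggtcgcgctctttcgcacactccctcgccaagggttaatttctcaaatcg
SCD held a pair of CCAAT matches, and the FADS1 and ELOVL6 stretches held none.

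Across the 250 bases before each RefSeq start, searched on both strands, 9 of the 10 genes had 14 windows between them. CCAAT was present in 8 of the 14, in SCD, ACLY, ACACA, ACSS2, ACSL3 and ELOVL5, and in 32% of all 35116 windows of that length. The ACLY windows overlap and hold the same CCAAT sites. The RefSeq start of the ACSS2 window with CCAAT lay 1446 bases from the closest start of a measured transcript, and the window at the measured ACSS2 starts held none. The starts of the FADS2 windows lay 11357 and 11558 bases from that of its measured transcript. TCACNCCAC, the letters of the sterol regulatory element, was present in 0 of the 14 and in 0.883% of all windows. CACGTG, an E-box, was in 1 of the 14, that of ELOVL5, and in 6.34% of all windows. ACGTG, the core letters of the hypoxia response element, which every CACGTG contains, was in 3 of the 14, those of ACACA, ELOVL5 and ELOVL6, and in 18.5% of all windows. The ACACA match lay in the window of the transcripts NM_198837 and NM_198838 (means of 0.0416 and 0.9901 FPKM). The window at the start of NM_198836 (13.78 FPKM) held none. The ELOVL6 match began 10 bases before the RefSeq start. The closest measured transcript start lay 61 bases before it, so the stretch printed above does not hold the match. A match describes the letters only, and no match says nothing of the factor.

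SCD was higher in low oxygen from 24 h on. In 21% oxygen its 3 libraries read 91.42, 90.88 and 87.56 FPKM at 6 h, 65.58, 61.85 and 53.24 FPKM at 24 h, 152.9, 154 and 151.4 FPKM at 3 d, and 152.6, 165.4 and 156.9 FPKM at 6 d. In 1% oxygen the same times gave 92.35, 96.52 and 105.5 FPKM, then 80.15, 76.24 and 75.74 FPKM, then 284.1, 304.1 and 284.8 FPKM, and at last 230.5, 214.9 and 228.1 FPKM. In 5% oxygen they gave 103.2, 101.6 and 96.76 FPKM, 87.65, 90.79 and 80.35 FPKM, 257.3, 253 and 296.9 FPKM, and 282.4, 294.5 and 284.9 FPKM. At each of the 4 times, every library in 1% and in 5% oxygen lay above every library in 21% oxygen, the narrow gap at 6 h included. Over all 10625 tested genes such gaps were common. Higher in 1% without overlap were 14.7%, 19.9%, 14.9% and 22.4% of genes at 6 h, 24 h, 3 d and 6 d. In 5% these shares were 6.72%, 12.3%, 20% and 23.6%. Lower without overlap were 5.84%, 24.4%, 31% and 25.3% in 1%, and 8.52%, 21.7%, 34.9% and 34.8% in 5%.

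Differences between groups were tested with limma on log2(FPKM + 1), with a threshold of 0.05 on the p adjusted over 10625 genes. SCD in 1% oxygen did not pass at 6 h (log2 difference 0.12, SE 0.07, adjusted p = 1). It was higher by 0.36 at 24 h (adjusted p = 0.00122), by 0.92 at 3 d (adjusted p = 4.98e-11) and by 0.50 at 6 d (adjusted p = 1.23e-05). As ratios of mean FPKM these were 1.28, 1.9 and 1.42. The shallow library, at 284.8 FPKM, read like its partners for SCD, and without it the 3 d difference was 0.94. The 24 h difference did not pass after a correction for GC content and length (0.28, adjusted p = 0.14), nor with the spread taken from the compared groups alone (adjusted p = 0.0587).

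In 5% oxygen SCD differed from 21% by 0.16 at 6 h (adjusted p = 1), and was higher by 0.51 at 24 h (adjusted p = 0.000447), by 0.81 at 3 d (adjusted p = 1.83e-09) and by 0.86 at 6 d (adjusted p = 6.95e-10). With the spread of the compared groups alone the 24 h value had an adjusted p of 0.175, where 0.00941% of all tested genes passed. The 1% and 5% comparisons share the 21% libraries and are not independent of each other. Set against each other at 6 d, SCD was lower in 1% than in 5% oxygen by 0.35 (SE 0.07, adjusted p = 0.00139), and the 3 libraries of each did not overlap. Of all tested genes 18.6% were lower in 1% than in 5% without overlap at 6 d, and 26.8% higher. After the correction for GC content and length the 6 d value did not pass (-0.32, adjusted p = 0.103). At 3 d the same comparison gave 0.12 (adjusted p = 0.195). It passed, with 1% higher, after quantile normalization (0.40, adjusted p = 0.00154) and after rescaling to TPM, where every library has the same total (0.44, adjusted p = 0.0214).

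From lowest to highest, the group means of SCD ran from 60.22 ± 6.33 FPKM (SD, n = 3) in 21% oxygen at 24 h, through 77.38 ± 2.42 in 1% and 86.26 ± 5.36 in 5% at 24 h. The 6 h groups followed at 89.95 ± 2.09 in 21%, 98.13 ± 6.73 in 1% and 100.5 ± 3.34 in 5% oxygen. Above them came 152.8 ± 1.28 at 3 d and 158.3 ± 6.5 at 6 d in 21% oxygen, 224.5 ± 8.41 in 1% at 6 d, 269 ± 24.2 in 5% at 3 d, 287.3 ± 6.41 in 5% at 6 d and 291 ± 11.3 in 1% at 3 d. Neighbours whose libraries overlapped were 5% at 24 h with 21% at 6 h, 1% with 5% at 6 h, 21% at 3 d with 21% at 6 d, and the 3 highest groups with each other. The span from lowest to highest mean was 4.83-fold.

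**Figure D1:**
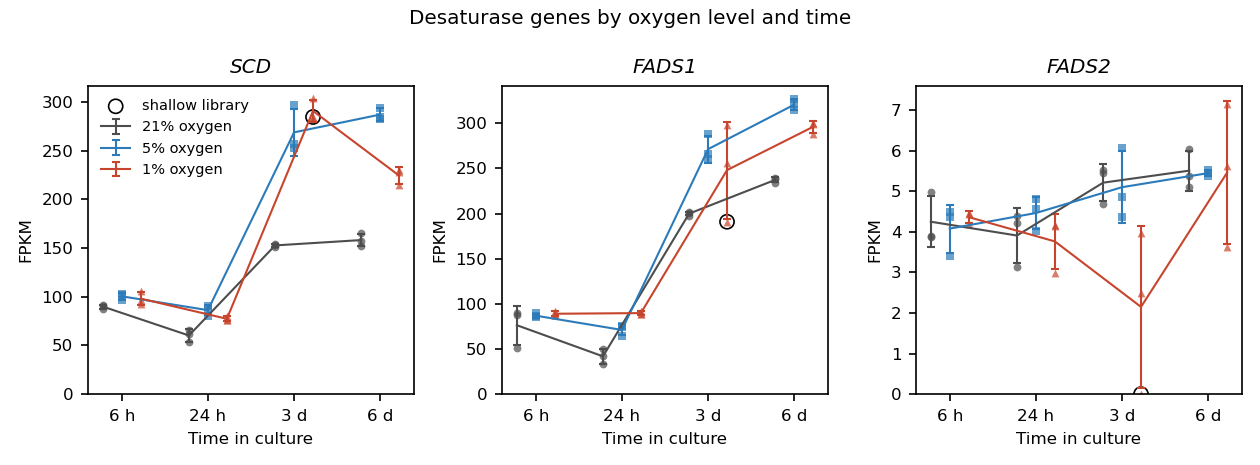
FPKM of SCD, FADS1 and FADS2 (vertical axes) at 6 h, 24 h, 3 d and 6 d (horizontal axis) in 21%, 5% and 1% oxygen, with 1 point per library, lines through the group means, bars of 1 SD (n = 3) and a ring on the shallow library. SCD spans 60.22 to 291 FPKM between group means and FADS1 41.81 to 320.6 FPKM, while FADS2 stays at or below 7.149 FPKM in every library.

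FADS1, the delta-5 desaturase, was higher in low oxygen above all at 24 h. Its libraries at that time read 49.66, 42.57 and 33.2 FPKM in 21% oxygen, 64.02, 75.23 and 73.98 FPKM in 5%, and 92.06, 88.61 and 88.47 FPKM in 1%, with no overlap between any pair of groups. The difference from 21% was 1.10 in 1% oxygen (SE 0.15, adjusted p = 2.81e-05), a 2.15-fold ratio of means, and 0.77 in 5% oxygen (adjusted p = 0.00418), a 1.7-fold ratio. The 21% group held the library of lowest relative depth, which had the lowest FADS1 value of the 3. Without that library the 5% difference was 0.61 and did not pass (adjusted p = 0.0841), and its part in the result was not tested.

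At 3 d FADS1 read 201.2, 200.8 and 197.6 FPKM in 21% oxygen, 265.5, 260 and 288.4 FPKM in 5%, and 255.6, 297.6 and 190.9 FPKM in 1%, the last of these in the shallow library. The 1% value did not pass with the shallow library (0.29, adjusted p = 0.109) and passed without it (0.46, adjusted p = 0.00918). With that library kept, it also passed after quantile normalization (0.68, adjusted p = 0.000114) and after the correction for GC content and length (0.54, adjusted p = 0.00129). The 5% value passed (0.44, adjusted p = 0.0361) but did not when any one of its 6 libraries was left out (adjusted p 0.0602 to 0.122). At 6 d the libraries read 234.2, 238.9 and 238.7 FPKM in 21%, 326.4, 321 and 314.4 FPKM in 5%, and 300.8, 298.8 and 288.6 FPKM in 1%, again with no overlap. Neither 6 d difference passed over all genes, at 0.32 in 1% (adjusted p = 0.218) and 0.43 in 5% (adjusted p = 0.0519), where the shared SE was 0.15. Without the shallow library in the whole fit, the 5% value passed (adjusted p = 0.0105). The 5% value also passed after quantile normalization (0.52, adjusted p = 0.00486) and after the correction for GC content and length (0.41, adjusted p = 0.03). It passed too among genes with a mean of at least 5 FPKM (adjusted p = 0.0432). With the spread of the compared groups alone both 6 d values passed (adjusted p = 0.00259 in 1% and 3.47e-05 in 5%), where 29.5% and 49.2% of genes were called. The 6 h groups overlapped, with 51.23, 88.12 and 89.59 FPKM in 21% oxygen, 89.39, 84.85 and 86.39 FPKM in 5% and 87.41, 87.49 and 92.05 FPKM in 1%.

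FADS2, the delta-6 desaturase that acts before FADS1, was measured at a low level and did not share the pattern of SCD and FADS1. The 35 libraries other than the shallow one lay between 2.485 and 7.149 FPKM, and the shallow library listed it at 0. At 3 d its libraries read 5.441, 5.511 and 4.676 FPKM in 21% oxygen, 4.36, 4.857 and 6.076 FPKM in 5%, and 2.485, 3.959 and 0 FPKM in 1%, so all 1% libraries lay below all others. FADS2 was lower in 1% oxygen at 3 d by 1.26 (adjusted p = 0.0017) and, without the shallow library, by 0.58 (adjusted p = 0.00856). With the spread of the compared groups alone, shallow library included, it did not pass (adjusted p = 0.299). That is 1 of its 8 differences from 21% oxygen at a single time, and the other 7 did not pass. Averaged over time the 1% value was -0.33 (adjusted p = 0.114). At this level 1 library weighs heavily, and leaving out the second library of 1% oxygen at 3 d moved the average to -0.45 (adjusted p = 0.0098).

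Among the enzymes that supply acetyl-CoA, ACSS2 spanned 22.1-fold between its lowest and highest group means and ACLY 2.31-fold at a higher level. ACSS2 in 21% oxygen read 4.457, 6.658 and 9.917 FPKM at 6 h, 5.771, 4.665 and 4.876 FPKM at 24 h, 26.08, 18.38 and 17.42 FPKM at 3 d, and 34.07, 32.02 and 33.66 FPKM at 6 d. In 1% oxygen it read 7.314, 8.098 and 5.626 FPKM, then 16.1, 12.24 and 16.06 FPKM, then 65.42, 128.2 and 48.34 FPKM, and at 6 d 44.45, 35.32 and 19 FPKM. In 5% oxygen it read 9.611, 7.536 and 8.356 FPKM, 6.024, 9.605 and 15.25 FPKM, 94.29, 66.34 and 118.7 FPKM, and 113.5, 115.2 and 109.6 FPKM. The 1% libraries lay clear of 21% at 24 h and 3 d and overlapped with it at 6 h and 6 d, while the 5% libraries lay clear of it at 24 h, 3 d and 6 d.

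ACSS2 was higher in 1% oxygen by 1.37 at 24 h (SE 0.31, adjusted p = 0.00352) and by 1.82 at 3 d (adjusted p = 3.01e-05), or by 2.12 without the shallow library. These were 2.9-fold and 3.91-fold ratios of means, the second of them 4.69-fold without the shallow library. At 6 d its difference was -0.09 (adjusted p = 0.944), and the third 1% library, at 19 FPKM, decided the sign: without it the value was 0.25 (adjusted p = 0.87). In 5% oxygen ACSS2 was higher by 2.10 at 3 d (adjusted p = 9.61e-06) and by 1.73 at 6 d (adjusted p = 0.000211), while 0.81 at 24 h did not pass (adjusted p = 0.115). Leaving out the first 5% library at 24 h, the lowest, gave 1.11 (adjusted p = 0.0329). The direct comparison at 6 d put 1% below 5% oxygen by 1.83 (adjusted p = 0.000206), with no overlap.

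ACLY read 97.15, 101.7 and 106 FPKM at 6 h, 83.01, 76.86 and 68.91 FPKM at 24 h, 140.2, 141.2 and 137.5 FPKM at 3 d, and 134.7, 142.9 and 143.5 FPKM at 6 d in 21% oxygen. In 1% oxygen it read 122.3, 114.2 and 126.3 FPKM, 88.04, 96.04 and 87.38 FPKM, 163.8, 164 and 128.9 FPKM, and 161.7, 160.3 and 165 FPKM. Every 1% library lay above every 21% library except at 3 d, where the shallow library (128.9 FPKM) lay below all 3. In 1% oxygen ACLY was higher at 24 h by 0.25 (SE 0.083, adjusted p = 0.0403), a call that was lost when any of 5 of the 6 libraries was left out (adjusted p 0.0681 to 0.291). The 3 d value was 0.12 (adjusted p = 0.241), and without the shallow library ACLY was higher by 0.23 (adjusted p = 0.0114).

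In 5% oxygen ACLY read 110.1, 115.6 and 111.5 FPKM at 6 h, 85.61, 88 and 80.57 FPKM at 24 h, 170.7, 162 and 196.2 FPKM at 3 d and 170.9, 184.5 and 174.1 FPKM at 6 d. It was higher than in 21% by 0.33 at 3 d (adjusted p = 0.00393) and by 0.33 at 6 d (adjusted p = 0.00619), both 1.26-fold by means and without overlap. After rescaling to TPM, the scale on which every library has the same total, the 3 d value was 0.18 and did not pass (adjusted p = 0.369).

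The enzymes that make malonyl-CoA and palmitate did not move alike. FASN at 24 h read 27.04, 25.83 and 22.46 FPKM in 21% oxygen, 38.99, 43.16 and 40.9 FPKM in 5% and 44.51, 40.29 and 41.93 FPKM in 1%. It was higher in 1% by 0.73 (SE 0.15, adjusted p = 0.00173) and in 5% by 0.69 (adjusted p = 0.00685), and both groups lay clear of 21%. After the correction for GC content and length these were 0.13 (adjusted p = 0.661) and 0.32 (adjusted p = 0.224), so the 24 h calls depend on that choice. The 5% call was also lost without the third 21% library (0.61, adjusted p = 0.11), the one of lowest relative depth, or without the third 5% library (0.69, adjusted p = 0.0517).

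At 3 d FASN read 55.57, 52.63 and 48.23 FPKM in 21%, 70.88, 61.27 and 41.46 FPKM in 5% and 96.68, 123.8 and 101.8 FPKM in 1% oxygen. The 1% libraries stood above all others, by 1.02 against 21% (adjusted p = 3.74e-06, 2.06-fold by means) and by 0.91 against 5% (adjusted p = 0.0002). With the spread of the compared groups alone the difference from 5% did not pass (adjusted p = 0.636). At 6 d the order differed, with 74.45, 77.82 and 78.68 FPKM in 21%, 96.48, 113.8 and 109.9 FPKM in 5% and 86.57, 75.42 and 55.49 FPKM in 1%. The 1% difference was then -0.11 (adjusted p = 0.801), and 0.07 without the third library. FASN in 5% was higher by 0.46 (adjusted p = 0.0383), a call lost when any of 5 of the 6 libraries was left out (adjusted p 0.0803 to 0.136).

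ACACA, the acetyl-CoA carboxylase, was lower in low oxygen at 3 d but not at 24 h. At 24 h it read 16.49, 16.1 and 11.44 FPKM in 21% oxygen. It read 20.28, 21.04 and 20.04 FPKM in 5% and 18.97, 19.26 and 17.45 FPKM in 1%, all above 21%. These differences did not pass (0.47, adjusted p = 0.318 in 5% and 0.335, adjusted p = 0.477 in 1%). Without the shallow library in the whole fit the 5% difference at 24 h passed (adjusted p = 0.0276). The 3 d libraries of ACACA read 21.55, 23.28 and 21.57 FPKM in 21%, 15.1, 13.45 and 6.616 FPKM in 5%, and 17.82, 15.82 and 5.183 FPKM in 1% oxygen. All libraries in low oxygen lay below all of those in 21%, and the third library was the lowest of each. ACACA was lower by 0.93 in 5% (SE 0.26, adjusted p = 0.00825) and by 0.89 in 1% (adjusted p = 0.00549). The 1% call rests on the shallow library, without which the difference was -0.38 (adjusted p = 0.0729). The 5% call was lost without the third 5% library while the shallow library was kept (-0.60, adjusted p = 0.108). With only the shallow library dropped, the 5% difference was still -0.93 and passed (adjusted p = 2.05e-05), at an SE of 0.16 in place of 0.26. With the spread of the compared groups alone, shallow library included, the 1% value did not pass (adjusted p = 0.305). Both calls were kept after the correction for GC content and length. At 6 d the libraries read 23.07, 24.45 and 24.74 FPKM in 21%, 17.23, 21 and 17.97 FPKM in 5% and 17.96, 16.08 and 17.24 FPKM in 1%, without overlap, at differences that did not pass (-0.35, adjusted p = 0.453 in 5% and -0.47, adjusted p = 0.307 in 1%). Without the shallow library in the whole fit the 1% difference at 6 d passed (adjusted p = 0.0247). Both 6 d differences passed with the spread of the compared groups alone (adjusted p = 0.00356 in 1% and 0.00772 in 5%). In that setting 29.5% and 49.2% of all tested genes were called.

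The elongases differed from each other. ELOVL6, which lengthens palmitate, was the only one of the 10 genes whose lower average over time passed, in 1% and in 5% oxygen. At 3 d its libraries read 25.81, 28.71 and 26.96 FPKM in 21%, 18.38, 19.66 and 22.53 FPKM in 5% and 16.93, 22.1 and 21.5 FPKM in 1%, and at 6 d 31.21, 30.7 and 31.15 FPKM, 26.94, 26.34 and 25.81 FPKM, and 21.11, 25.02 and 21.11 FPKM. Both low-oxygen groups lay below 21% at both times without overlap. So did 31% of all tested genes in 1% and 34.9% in 5% at 3 d, and 25.3% and 34.8% at 6 d. ELOVL6 was lower in 1% by 0.42 at 3 d (SE 0.11, adjusted p = 0.00182) and by 0.46 at 6 d (adjusted p = 0.00409), and in 5% by 0.41 at 3 d (adjusted p = 0.00457). In 5% at 6 d the difference was -0.23 (adjusted p = 0.171). This value passed with the spread of the compared groups alone (adjusted p = 0.00649), where 49.2% of all tested genes were called. The 1% values did not pass after rescaling to TPM (adjusted p = 0.207 at 3 d and 0.0676 at 6 d) or after the correction for GC content and length (adjusted p = 0.147 and 0.117), and with the spread of the compared groups alone the 3 d value did not (adjusted p = 0.214). The 5% value at 3 d did not pass after the GC and length correction either (-0.32, adjusted p = 0.181). At 6 h and 24 h its groups overlapped with 21%.

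ELOVL5, which lengthens polyunsaturated chains, read 107.9 to 183.5 FPKM in the libraries other than the shallow one. In 1% oxygen at 3 d it read 144.3, 169 and, in the shallow library, 22.93 FPKM, against 152.6, 170.4 and 158 FPKM in 21%. The lower level at 3 d in 1% oxygen (-0.94, SE 0.36, adjusted p = 0.0305) rests on that library, and without it the difference was -0.04 (adjusted p = 0.763). No other difference of ELOVL5 from 21% oxygen at a single time passed.

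ACSL3, which activates long-chain fatty acids at the endoplasmic reticulum and lipid droplets, was higher at 24 h. Its libraries read 8.013, 5.808 and 3.807 FPKM in 21%, 7.262, 16.9 and 21.75 FPKM in 5%, and 20.7, 18.85 and 21.32 FPKM in 1% oxygen. The 1% libraries lay clear of 21%, and the first 5% library lay within the 21% range. The difference was 1.68 in 1% (SE 0.32, adjusted p = 0.000875, 3.45-fold by means) and 1.17 in 5% (adjusted p = 0.021). The 5% call was lost without the third 21% library (0.94, adjusted p = 0.255), the second 5% library (1.04, adjusted p = 0.105) or the third 5% library (0.87, adjusted p = 0.186). At 3 d ACSL3 in 1% read 26.07, 45.27 and 35.75 FPKM against 24.47, 24.72 and 18.21 FPKM in 21%, a difference of 0.62 that did not pass (adjusted p = 0.102). By 6 d it read 32.93, 28.6 and 13.88 FPKM in 1% against 29.99, 31.71 and 29.84 FPKM in 21%.

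**Figure D2:**
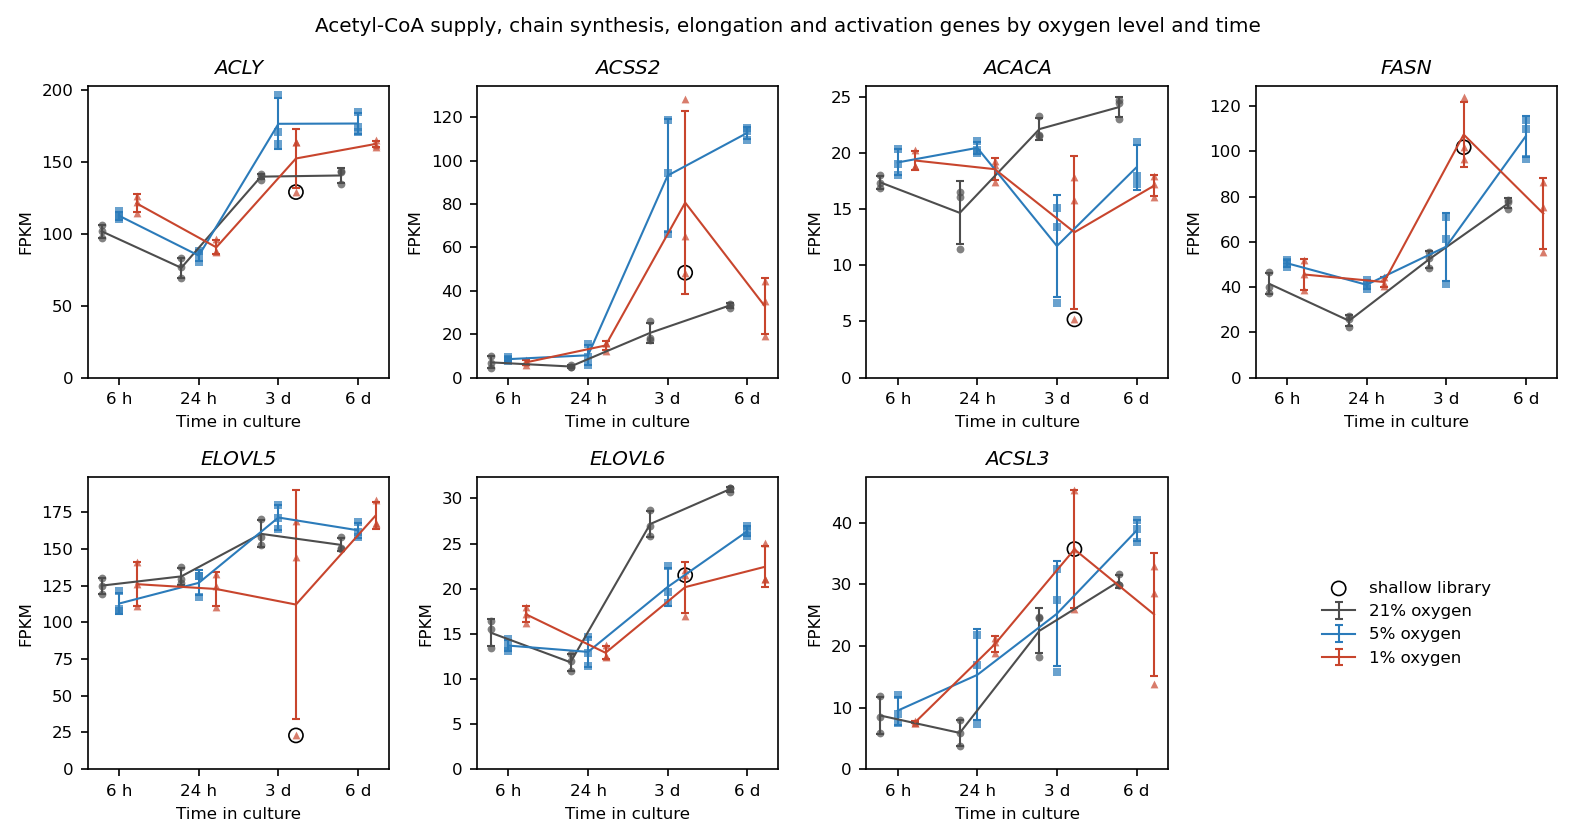
FPKM of ACLY, ACSS2, ACACA, FASN, ELOVL5, ELOVL6 and ACSL3 (vertical axes) by time (horizontal axis) in 21%, 5% and 1% oxygen, with 1 point per library, lines through the group means, bars of 1 SD (n = 3) and a ring on the shallow library. ACSS2 in 5% oxygen reaches 109.6 to 115.2 FPKM at 6 d against 32.02 to 34.07 FPKM in 21%, and ACACA lies below its 21% libraries in both low-oxygen groups at 3 d.

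Counted together at each time, the 10 genes were not called at 6 h, were called at 24 h only as higher, and were called in both directions at 3 d. At 6 h limma called 0 of the 10 in 1% and 0 in 5% oxygen, where percent called over all tested genes was 0 in both. At an unadjusted p under 0.05 it marked 1 member in each, against 3.3% of all genes in 1% and 2.64% in 5%. At 24 h 6 were higher in 1% oxygen and 0 lower, where 16.2% of all genes were called, 6.56% as higher and 9.66% as lower. The 6 were SCD, FADS1, ACLY, ACSS2, FASN and ACSL3. In 5% oxygen 4 were higher at 24 h and 0 lower, where 9.38% of genes were called, 2.39% as higher and 6.99% as lower. With the spread of the compared groups alone 0 of these 4 passed, where 0.00941% of all tested genes did. The median difference of the 10 at 24 h was 0.35 in 1% and 0.49 in 5%, beside 0.00 and -0.02 over all tested genes. Rescaling to TPM moved the median of all genes at 24 h to 0.39 in 1% and 0.36 in 5% oxygen, so a difference at 24 h is relative to a level that depends on the scaling by that much.

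At 3 d 3 members were higher and 4 lower in 1% oxygen, where 53.2% of all genes were called, 16.9% as higher and 36.3% as lower. Without the shallow library 5 were higher and 2 lower, where 53.7% of genes were called, 25.2% as higher and 28.5% as lower. The share of members called was thus not far from that of all genes. In 5% oxygen at 3 d 4 were higher and 2 lower, against 21.8% of all genes called, 8.25% as higher and 13.6% as lower. At 6 d 1 was higher (SCD) and 1 lower (ELOVL6) in 1% oxygen, where 10.9% of genes were called, 5.84% as higher and 5.04% as lower, or 2 and 2 without the shallow library, where 29.8% were. In 5% oxygen SCD, ACLY, ACSS2 and FASN were higher at 6 d and 0 were lower, where 14.8% of genes were called, 7.24% as higher and 7.59% as lower.

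Averaged over the 4 times, 6 members were higher and 1 lower in 1% oxygen, where 31.4% of all genes were called, 12.4% as higher and 19% as lower. The same split was found in 5% oxygen, where 24.2% of genes were called, 9.21% as higher and 15% as lower. SCD was higher by 0.48 in 1% (SE 0.04, adjusted p = 5.08e-11) and by 0.58 in 5% (adjusted p = 1.15e-12). FADS1 was higher by 0.49 (adjusted p = 1.05e-05) and 0.47 (adjusted p = 2.66e-05). ACLY was higher by 0.21 (adjusted p = 0.000358) and 0.24 (adjusted p = 6.84e-05), and FASN by 0.44 (adjusted p = 5.07e-05) and 0.39 (adjusted p = 0.000299). The widest averages belonged to ACSS2, with 0.78 in 1% (adjusted p = 0.000327) and 1.24 in 5% (adjusted p = 7.53e-07).

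ACSL3 was higher on average by 0.45 in 1% (adjusted p = 0.0313) and by 0.44 in 5% (adjusted p = 0.0456), close to the threshold. Of the 24 libraries in each comparison, leaving out any of 5 lost the 1% call and any of 19 lost the 5% call. ELOVL6 was lower on average by 0.15 in 1% (adjusted p = 0.0356) and by 0.16 in 5% (adjusted p = 0.0237), and rescaling to TPM brought the 1% value to 0.0025. The call in 1% was lost in 13 of 24 leave-one-out fits and that in 5% in 2 of 24, without the second 5% library at 24 h (-0.14, adjusted p = 0.0551) or the first at 3 d (-0.15, adjusted p = 0.051). The 5% call was also lost after rescaling to TPM (-0.03, adjusted p = 0.883), quantile normalization (-0.13, adjusted p = 0.0727) and the GC and length correction (-0.17, adjusted p = 0.163). FADS2, ACACA and ELOVL5 did not pass in either average.

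**Figure D3:**
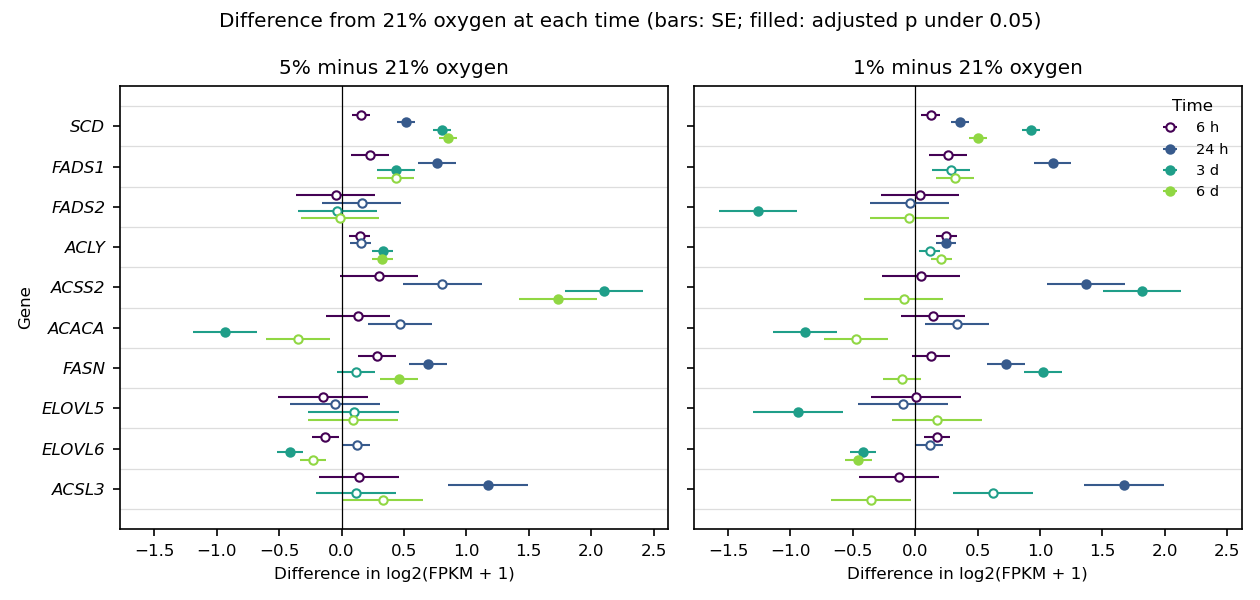
Differences on the log2(FPKM + 1) scale of the 10 genes from 21% oxygen (horizontal axis) at 6 h, 24 h, 3 d and 6 d, for 1% and for 5% oxygen, with bars of 1 standard error and filled points where the adjusted p is under 0.05. No point is filled at 6 h, and SCD is filled at 24 h, 3 d and 6 d at both oxygen levels.

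Between 1% and 5% oxygen no member passed on average, and the calls lay at 3 d and 6 d. Averaged over time, 0 of the 10 passed, where 4.41% of all genes were called, and 3 had an unadjusted p under 0.05, against 17.2% of genes. SCD averaged -0.11 (adjusted p = 0.0965) and ACSS2 -0.45 (adjusted p = 0.11), and each passed when the second 1% library at 3 d was left out (SCD -0.12, adjusted p = 0.0498, and ACSS2 -0.55, adjusted p = 0.0178). At 6 h 0 passed, with 0.0471% of genes called, and at 24 h 0 passed, with 0.744% called. At 3 d FASN was higher in 1% than in 5% and FADS2, ACLY and ELOVL5 were lower, where 36.6% of genes were called, 13.4% as higher and 23.2% as lower. For ACLY and ELOVL5 those calls were lost without the shallow library, at -0.10 (adjusted p = 0.339) and -0.13 (adjusted p = 0.289). FADS2 was lower by 1.23 (adjusted p = 0.00579) and without the shallow library by 0.54 (adjusted p = 0.0267). With the spread of the compared groups alone, shallow library included, the 3 d calls of FASN, FADS2, ACLY and ELOVL5 were lost (adjusted p = 0.636 for each). ACACA gave 0.05 (adjusted p = 0.893), and without the shallow library it was higher in 1% by 0.56 (adjusted p = 0.021) with no overlap.

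At 6 d SCD, ACSS2 and FASN were lower in 1% than in 5% oxygen and 0 members were higher, where 8.61% of all genes were called, 4.72% as higher and 3.9% as lower. FASN was lower by 0.57 (adjusted p = 0.0155). Leaving out the third 1% library gave -0.39 (adjusted p = 0.181), leaving out the second 5% library -0.52 (adjusted p = 0.0766) and leaving out the third 5% library -0.55 (adjusted p = 0.0655). SCD and ACSS2 remained called in each leave-one-out fit, while the SCD call was lost with the GC and length correction, as given above.

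Some of these genes also differed between times in 21% oxygen, and the cause was not tested. From 6 h to 24 h in 21% oxygen 3 of the 10 fell and 0 rose, where 0.132% of all genes were called, 0.0471% as higher and 0.0847% as lower. SCD fell by 0.58 (adjusted p = 0.000168), FADS1 by 0.83 (adjusted p = 0.0126) and ACLY by 0.41 (adjusted p = 0.0294), while FASN gave -0.70 (adjusted p = 0.0626). The FADS1 call was lost without the second (-0.70, adjusted p = 0.149) or the third (-0.69, adjusted p = 0.165) library at 6 h or the third at 24 h (-0.67, adjusted p = 0.144), and that of ACLY without any of 4 of its 6 libraries. When the spread came from the compared groups alone, 0 of these calls remained (adjusted p = 0.551 for each), where 0% of all tested genes were called. After the GC and length correction SCD (-0.56) and ACLY (-0.43) did not pass (adjusted p = 0.068 for each). In 1% oxygen ACSL3 rose over the same interval by 1.30 (adjusted p = 0.02), a call lost in 5 of 6 leave-one-out fits, and SCD, ACLY and ELOVL6 fell, where 3.79% of all genes were called, 1.84% as higher and 1.96% as lower. SCD fell there by 0.34 (adjusted p = 0.00749) and this was lost without the third library at 6 h (-0.28, adjusted p = 0.0769) or at 24 h (-0.32, adjusted p = 0.0529). The SCD call was also lost after quantile normalization (-0.18, adjusted p = 0.349), rescaling to TPM (-0.17, adjusted p = 0.943) and the GC and length correction (-0.34, adjusted p = 0.139). The ACLY call in 1% was lost after quantile normalization (-0.25, adjusted p = 0.0896) and rescaling to TPM (-0.25, adjusted p = 0.584). ELOVL6 fell by 0.39 (adjusted p = 0.0359), a call lost in 5 of 6 leave-one-out fits (adjusted p 0.0675 to 0.162), with no filter on low values (adjusted p = 0.0609), after rescaling to TPM (-0.23, adjusted p = 0.827) and after the GC and length correction (-0.39, adjusted p = 0.246). In 5% oxygen 1 member, ACLY, fell (-0.40, adjusted p = 0.0353, lost when any of the 6 libraries was left out), where 0.141% of genes were called, 0.0753% as higher and 0.0659% as lower.

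From 6 h to 3 d 6 members rose in each oxygen level. ELOVL5 was not among them (adjusted p = 0.788 in 21%, 0.245 in 5% and 0.164 in 1%). Without the shallow library in the whole fit it rose by 0.36 in 21% (adjusted p = 0.00298), 0.60 in 5% (adjusted p = 5.21e-07) and 0.31 in 1% oxygen (adjusted p = 0.00416). In that fit 18.1%, 51.8% and 57.6% of all genes were called. In 21% oxygen 4.6% of all genes were called, 3.42% as higher and 1.19% as lower, and 0 members fell. FADS1 rose by 1.42 (adjusted p = 8.17e-07), SCD by 0.76 (adjusted p = 1.26e-07), ELOVL6 by 0.81 (adjusted p = 1.34e-05) and ACLY by 0.46 (adjusted p = 0.00101). ACSS2 rose by 1.47 (adjusted p = 0.00475) and ACSL3 by 1.31 (adjusted p = 0.0146). The ACSS2 call was lost without the first library at 6 h (1.22, adjusted p = 0.0656), and that of ACSL3 without the first library at 6 h (1.08, adjusted p = 0.141) or the first (1.24, adjusted p = 0.0721) or second (1.23, adjusted p = 0.0708) at 3 d. The median of the 10 was 0.61 beside 0.03 over all tested genes.

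In 5% oxygen SCD rose from 6 h to 3 d by 1.41 (adjusted p = 1.17e-14), FADS1 by 1.63 (adjusted p = 1.88e-09) and ACSS2 by 3.27 (adjusted p = 3.96e-09), where 27.9% of genes were called, 12.5% as higher and 15.4% as lower. ACLY rose there by 0.64 (adjusted p = 7.51e-07), ACSL3 by 1.28 (adjusted p = 0.00293) and ELOVL6 by 0.52 (adjusted p = 0.000345), the last of which did not pass after rescaling to TPM (0.37, adjusted p = 0.0963). In 1% oxygen SCD rose by 1.56 (adjusted p = 1.02e-15), FADS1 by 1.45 (adjusted p = 8.68e-09), ACSS2 by 3.24 (adjusted p = 2.29e-09) and FASN by 1.22 (adjusted p = 2.02e-07), where 56.4% of genes were called, 18.6% as higher and 37.8% as lower. ACSL3 rose there by 2.06 (adjusted p = 6.38e-06) and ACLY by 0.32 (adjusted p = 0.002), which did not pass with the spread of the compared groups alone (adjusted p = 0.195). FADS2 fell by 1.05 in 1% (adjusted p = 0.00658), a call lost without the shallow library (-0.37, adjusted p = 0.0844). ACACA was lower at 3 d than at 6 h in 5% (-0.73, adjusted p = 0.0323) and in 1% (-0.70, adjusted p = 0.0229), and without the shallow library the 1% value was -0.19 (adjusted p = 0.365). The 5% call of ACACA was lost in 4 of 6 leave-one-out fits, and without the third library at 3 d the value was -0.40 (adjusted p = 0.301). In 5% 1 member fell, ACACA, and in 1% the 2 that fell were ACACA and FADS2.

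From 3 d to 6 d, an interval that follows the passage, 0 members passed in 21% oxygen, where 1.06% of genes were called. An unadjusted p under 0.05 was found for 2 members, against 9.52% of all genes. Without overlap 5 members were higher and 0 lower, against 18.7% and 19.7% of all tested genes. FASN gave 0.56 (adjusted p = 0.0711) and passed without the shallow library in the whole fit (adjusted p = 0.0206), where 7.29% of genes were called. With the spread of the compared groups alone, FASN (adjusted p = 0.00241) and ACSS2 (0.68, adjusted p = 0.0138) were among the members that passed, where 16.9% of genes did. In 5% oxygen FASN rose by 0.90 (adjusted p = 0.000473) and ELOVL6 by 0.37 (adjusted p = 0.0294), where 7.41% of genes were called, 5% as higher and 2.41% as lower. The ELOVL6 call was lost in 5 of 6 leave-one-out fits (adjusted p 0.0787 to 0.119) and after the GC and length correction (0.21, adjusted p = 0.601). In 1% oxygen SCD fell by 0.37 (adjusted p = 0.000185), ACSS2 by 1.23 (adjusted p = 0.00273) and FASN by 0.58 (adjusted p = 0.00347), where 49% of genes were called, 34.1% as higher and 14.8% as lower. With the spread of the compared groups alone, shallow library included, these 3 did not pass (adjusted p = 0.109 for SCD, 0.26 for ACSS2 and 0.228 for FASN). Without the shallow library in the whole fit SCD gave -0.39 (adjusted p = 0.000187), ACSS2 -1.53 (adjusted p = 0.000281) and FASN -0.61 (adjusted p = 0.0035). In that fit 44.6% of all genes were called in 1% oxygen. FADS2 rose by 1.28 there (adjusted p = 0.00196), and by 0.60 without the shallow library (adjusted p = 0.00836). With the spread of the compared groups alone FADS2 did not pass either (adjusted p = 0.394). Its libraries at 3 d and 6 d overlapped with and without the shallow library. ELOVL5 rose by 1.05 with the shallow library (adjusted p = 0.0194) and by 0.14 without it, which did not pass (adjusted p = 0.206). SCD in 5% oxygen gave 0.10 over the same interval (adjusted p = 0.554).

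The deposited transcript table gave 1 transcript each for SCD, FADS1, FADS2 and FASN. Cufflinks estimates split ACLY between a pair of transcripts, with NM_001096 at 47% to 74.1% of the gene by group and at 0.579% in the shallow library. The 47% is the mean of 1% oxygen at 3 d and rests on that library, whose partners gave 81.4% and 59%. The next lowest group mean was 48.4%, in 21% oxygen at 24 h. For ACACA, NM_198836 held 66.5% to 85.6% by group. The transcript NM_198839 held 25.4% ± 11.3 (SD, n = 3) in 5% oxygen at 3 d and 9.53% ± 1.4 (SD, n = 3) in 21% oxygen at 3 d. These shares come from short reads that neighbouring transcripts have in common, so they are estimates.

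Among the genes that control this pathway, INSIG1 and SREBF2 were higher in both low-oxygen levels and SREBF1 did not pass in either. Of 16 genes for the transcriptional control of lipid synthesis 14 were tested, and 6 were higher and 1 lower in 1% oxygen averaged over time, with a median of 0.14 beside -0.07 over all tested genes, of which 12.4% were called as higher and 19% as lower. In 5% oxygen 7 were higher and 1 lower, with a median of 0.30 beside -0.04, where 9.21% of all genes were called as higher and 15% as lower. INSIG1, itself an SREBP target that retains SREBP, was higher by 1.07 in 1% (adjusted p = 4.73e-06) and by 0.99 in 5% (adjusted p = 1.72e-05). INSIG2, its relative, was higher by 0.75 in 1% (adjusted p = 3.14e-07). SREBF2, which encodes the sterol-regulating SREBP2, was higher by 0.53 in 1% (adjusted p = 0.00326) and by 0.56 in 5% (adjusted p = 0.00229). SREBF1, which encodes SREBP1, the form tied to fatty acid synthesis, gave 0.05 in 1% (adjusted p = 0.632), at group means of 2.17 to 5.35 FPKM. MLXIPL, the carbohydrate response factor ChREBP, gave 0.18 (adjusted p = 0.339) at group means of 0.957 to 1.95 FPKM. MLX, the partner of MLXIPL, was lower by 0.36 (adjusted p = 6.74e-07). MYLIP, which encodes a ubiquitin ligase, was higher by 0.71 (adjusted p = 2.92e-06).

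By time, INSIG1 in 1% oxygen was higher at 24 h and 3 d and not called at 6 d. Its group means were 18.15, 14.06, 104.4 and 273.5 FPKM at 6 h, 24 h, 3 d and 6 d in 21% oxygen, 24.04, 36.05, 260.1 and 561.8 FPKM in 5%, and 19.22, 56.54, 478.2 and 336.5 FPKM in 1%. The 5% mean was above the 21% mean at every time, while the 1% mean was closer to 21% at 6 d than at 3 d. INSIG1 in 1% was higher by 1.93 at 24 h (adjusted p = 0.000228) and by 2.11 at 3 d (adjusted p = 3.23e-06), and gave 0.15 at 6 d (adjusted p = 0.885). SREBF2 in 1% was higher by 1.37 at 24 h (adjusted p = 0.00105) and by 0.92 at 3 d (adjusted p = 0.00586), and gave -0.31 at 6 d (adjusted p = 0.611).

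**Figure D4:**
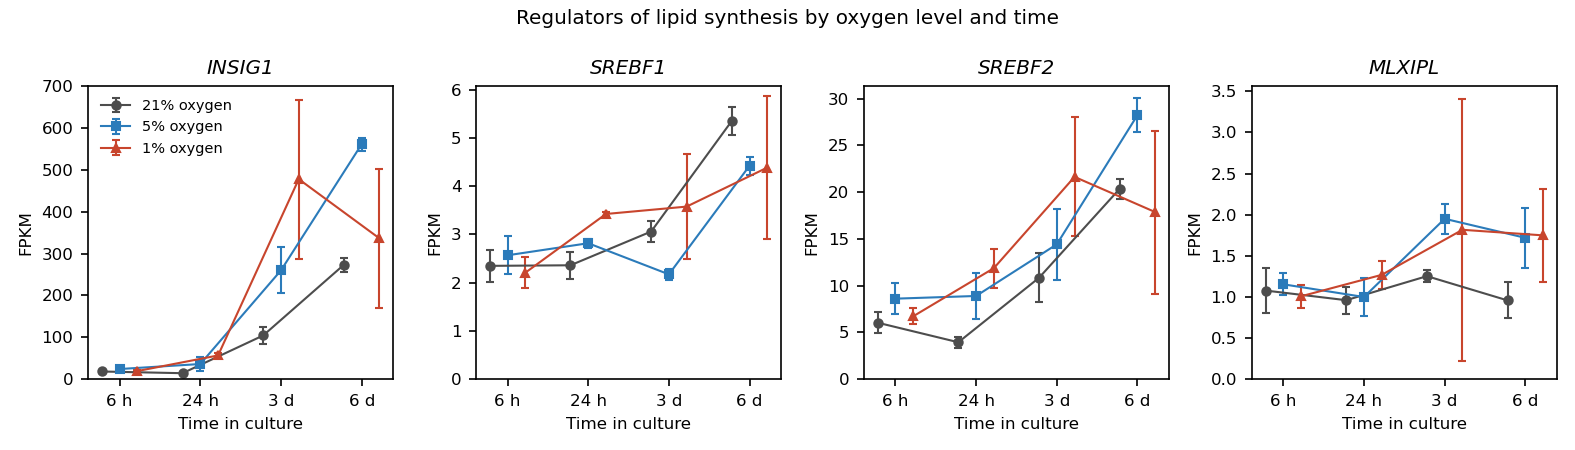
FPKM of INSIG1, SREBF1, SREBF2 and MLXIPL (vertical axes) by time (horizontal axis) in 21%, 5% and 1% oxygen, as group means with bars of 1 SD (n = 3). INSIG1 in 1% oxygen has a mean of 478.2 FPKM at 3 d against 104.4 FPKM in 21%, and at 6 d 336.5 against 273.5 FPKM.

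Of 25 other genes of fatty acid synthesis 14 were tested, and 3 were higher and 1 lower in 1% oxygen averaged over time, with a median of -0.03 beside -0.07 over all tested genes and beside 31.4% of them called. Called members of this list were thus 4 of 14, near the share of all genes. Without the shallow library 6 were higher and 1 lower, where 49% of all genes were called. In 5% oxygen 4 were higher and 1 lower, where 24.2% of all genes were called. SCD5, a second stearoyl-CoA desaturase, was higher by 0.70 in 1% (adjusted p = 0.00166) and by 0.53 in 5%. FADS3, of the FADS cluster, was higher by 0.54 (adjusted p = 0.00032) and 0.38. ME1, the cytosolic malic enzyme that makes NADPH, was higher by 0.39 (adjusted p = 0.00638) and 0.52. PTPLAD1, a dehydratase of the elongation cycle, was lower by 0.35 (adjusted p = 1.97e-05) and 0.34.

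Of 6 genes that supply electrons to the desaturases, 1 was higher in 1% oxygen, the cytochrome b5 reductase CYB5R3 (0.15, adjusted p = 0.0343), and 0 passed in 5%, where 31.4% and 24.2% of all genes were called. Of 10 other lipid enzymes that use oxygen 7 were tested, with 4 higher and 1 lower in 1%, a median of 0.38 beside -0.07 over all tested genes, and 4 higher and 0 lower in 5%. Over all genes 12.4% were called as higher in 1% and 9.21% in 5%. The 4 are enzymes of sterol synthesis: SQLE was higher by 0.60 in 1% (adjusted p = 4.09e-12), MSMO1 by 0.60 (adjusted p = 3.7e-08), SC5DL by 0.38 (adjusted p = 5.81e-07) and CYP51A1 by 0.45 (adjusted p = 0.00134). The lower gene was DEGS1, the dihydroceramide desaturase (-0.23, adjusted p = 0.0146), named after its value was seen.

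Over the 12 group means, with the shallow library left out, genes among 10624 with a pattern most like that of SCD included CYP51A1 (Pearson r 0.985), GDA (0.983), DHCR7 (0.980) and SQLE (0.980). Those most like FADS1 were SCARB1 (0.969), AACS (0.964), CD46 (0.962), SCD (0.960) and INSIG1 (0.958). The values nearest FADS2 were lower, with SLC18B1 (0.863), SLC22A5 (0.843), FGFR4 (0.836), SFXN1 (0.825) and C2orf43 (0.821). Among the members, SCD had r of 0.962 with ACLY, 0.943 with ACSS2, 0.364 with FADS2 and -0.191 with ACACA. These coefficients describe 12 groups in which culture time and depth also differ, and carry no test.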

How the data were processed

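Polyadenylated RNA of K562 cells was made into Smart-seq2 libraries and sequenced with short paired-end reads, per the labels. FPKM values per gene and per transcript were made by the authors with TopHat, Cuffquant and Cuffnorm, per the submitters' processing notes and the design text. The sources used here give no versions, and neither the build nor the annotation, and the deposited FPKM hold no counts, so depth was estimated only relative to other libraries, from the smallest steps between low values.

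From these, log2(FPKM + 1) of the 10625 genes with a mean of at least 1 FPKM was fitted with limma 3.58.1 (R 4.3.3) as 12 group means over 36 libraries, with trended empirical Bayes, 24 residual degrees of freedom, two-sided contrasts and Benjamini-Hochberg adjustment over all genes tested. A moderated F test asked whether an oxygen difference varied with time. With a pseudocount of 1, a difference understates the change of low genes. The model was checked on simulated data. Alternatives were other pseudocounts, filters, scalings and spreads, a replicate block, and each library left out.

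The 10 genes were tested in every comparison and are named where they were called or where a value bears on the description. From the other lists the 4 genes with the smallest adjusted p in 1% oxygen averaged over time are named where they passed, with SREBF1, SREBF2, INSIG1 and MLXIPL always. Some genes that this rule would name are not reported here. The members and lists were chosen with earlier results of these data known. The correction for GC content and length and the comparisons between 1% and 5% oxygen at single times and between times in 5% and 1% oxygen were added after seeing the data. Promoter letters came from RefSeq. The gene FASN had no entry there.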

Additional observations from a re-analysis of the deposited data

Results flagged for a closer look

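The difference between 1% and 21% oxygen was not the same at the 4 times for 8 of the 10 genes, by the moderated F test of limma, where 40.3% of all tested genes passed. The adjusted p was 5.98e-06 for SCD, 0.000398 for FASN, 0.000927 for ELOVL6, 0.00161 for ACSS2, 0.00293 for ACSL3, 0.00488 for FADS1, 0.0255 for ACACA and 0.0489 for FADS2. For SCD the difference was widest at 3 d, for FADS1 and ACSL3 at 24 h. ACSS2 and FASN were higher at 24 h and 3 d and near 21% oxygen at 6 d. ELOVL6 was lower at 3 d and 6 d, and no difference was called for it at 6 h or 24 h. Without the shallow library 7 genes passed, where 63.3% of all genes did, and FADS2 did not (adjusted p = 0.104).

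The difference between 5% and 21% oxygen varied with time for 3 genes, where 14.5% of all tested genes passed. The adjusted p was 2.66e-05 for SCD, 0.0137 for ACSS2 and 0.0316 for ACACA. SCD was close to 21% oxygen at 6 h and higher at 3 d and 6 d, ACSS2 was higher at 3 d and 6 d, and ACACA was lower at 3 d.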

How the results depend on the processing

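The count of genes called among the 10 moved by over 1.5 times under few choices. The share of all tested genes called in the same setting follows each count. With the GC and length correction, 1% oxygen at 24 h had 3 calls instead of 6 (11.3% instead of 16.2% of all genes), 1% at 6 d 1 instead of 2 (11% instead of 10.9%), 5% at 24 h 2 instead of 4 (3.28% instead of 9.38%), and 24 h against 6 h in 21% oxygen 1 instead of 3 (0.0876% instead of 0.132%). With the spread of the compared groups alone, 1% at 3 d had 3 instead of 7 (7.7% instead of 53.2%), 1% at 6 d 5 (29.5%), 5% at 24 h 0 (0.00941%), 5% at 6 d 8 instead of 4 (49.2% instead of 14.8%), 24 h against 6 h in 21% 0 (0%), and 6 d against 3 d in 21% 4 instead of 0 (16.9% instead of 1.06%). Rescaling to TPM gave 1 for 1% at 6 d (7.25%) and 8 for 5% at 24 h (16.2%). Without the shallow library in the whole fit, 1% at 6 d had 4 (29.8%) and 6 d against 3 d in 21% had 1 (7.29%). The cause of these moves was not tested. Leaving out 1 library at a time gave 0 to 0 calls at 6 h, 5 to 6 at 24 h, 6 to 8 at 3 d, 2 to 2 at 6 d and 5 to 8 on average in 1% oxygen. In 5% it gave 0 to 0, 1 to 5, 4 to 5, 3 to 4 and 5 to 7, and 0 to 3 for 1% against 5% on average. In 21% oxygen it gave 1 to 4 for 24 h against 6 h, 4 to 6 for 3 d against 6 h and 0 to 0 for 6 d against 3 d. The variation with time gave 6 to 9 in 1% and 2 to 4 in 5%. For single genes, leaving out a library kept 908 values, lost 120 calls, gained 8 and turned 2, and the other alternatives kept 908, lost 88, gained 38 and turned 5. The turned values were ACSS2 at 6 d in 1% without the third library (0.247, leave-one-out range -0.345 to 0.247), FASN there without the third library (0.0693, range -0.247 to 0.0693) and with the GC and length correction (0.0143), ELOVL6 averaged in 1% after rescaling to TPM (0.0025), and ACLY in 1% against 5% at 3 d with quantile normalization (0.0866), TPM (0.1131) and the GC and length correction (0.0171). Of 86 called values, 38 held under every alternative, 9 of them for SCD, 9 for ACSS2, 6 for FADS1 and 0 for FADS2, ACACA and ELOVL5. With the replicate number as a block, calls in 1% were 0, 5, 7 and 2 by time and in 5% 0, 4, 6 and 4, with 7 and 6 on average, so no count moved by over 1.5 times. The numbers share no source in the labels, and same-numbered libraries did not deviate together (1 of 24 pairs with a correlation over 0.1, range -0.2635 to 0.1156). Depth is unknown in absolute terms, and how far it limits each member was not tested. FADS2, with a median of 4.45 FPKM, was the member that the shallow library listed at 0.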
